A study of Mus musculus with 8 samples.

Results

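The *HOXA*-*MEIS1* program of MLL-rearranged leukemia was examined as 9 genes, *Hoxa3*, *Hoxa5*, *Hoxa6*, *Hoxa7*, *Hoxa9*, *Hoxa10*, *Meis1*, *Pbx3* and *Mecom*. They were chosen by name, as the genes of the count data whose Ensembl identifiers carry these symbols in GENCODE M21. No measured value entered that rule, although earlier results of these data were known when the genes were picked. All 9 were found among the 54838 genes listed, and all 9 were among the 12405 genes with enough reads to be tested. RNA-seq had been made from 8 samples of mouse bone marrow leukemic stem cells that carry *iMLL-AF9*, an *MLL-AF9* fusion oncogene switched on by doxycycline. In the study 4 samples received DMSO, the solvent used as the control, and 4 received IOX5, an inhibitor of the prolyl hydroxylases (PHDs) that mark hypoxia-inducible factor (HIF) for degradation, and the samples of each group are numbered 1 to 4. All samples have the same genotype label (WT), the *iMLL-AF9* mice were on the C57BL/6 background, and the fusion is shared by the controls. The study's mice were in general 8 to 12 weeks old, and the dose and length of treatment and what a replicate number stands for are not given in the sources used here. The cells are named leukemic in the methods and preleukemic in the series' own description. Nothing states that samples of one group came from separate cultures or animals, so p-values measure the spread between these samples, which may be technical. Because each sample is a bulk RNA preparation, fewer cells of a type and less RNA per cell cannot be told apart.

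The libraries held 12343770 to 14116054 gene reads under DMSO and 11351507 to 12708888 under IOX5. Levels are given as CPM, read counts scaled to the size of each library with TMM factors. The reads behind one member in one sample ranged from 63 for *Pbx3* to 3761 for *Hoxa9*. As a check of the treatment labels, 5 of 6 HIF pathway genes were called higher under IOX5, against 0.774% of all genes tested. Their list was written by hand with earlier results of these data known. One of these genes, *Bnip3*, is reported by the paper as upregulated by IOX5. The check was therefore partly fixed in advance. *Ankrd37*, a HIF target, was at 5.29 to 6.95 CPM in the DMSO samples and 13.5 to 18.2 CPM in the IOX5 samples (edgeR adjusted p = 0.0143). The defining stem and progenitor genes *Kit* and *Cd34* were expressed in every sample, at 44.0 to 133 CPM and 23.2 to 231 CPM. The granule gene *Mpo* was higher than either, at 984 to 3915 CPM. The B cell gene *Ms4a1* and the T cell genes *Cd3g*, *Cd4* and *Cd8a* had no read in any sample, but other genes of those lists did, with *Ighm* at 38.1 to 75.2 CPM, *Cd79b* at 2.86 to 8.40 CPM and *Nkg7* at 4.87 to 26.5 CPM.

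HOXA proteins are homeodomain transcription factors whose genes lie side by side in one cluster and are used in blood stem cells and early progenitors, then switched off as myeloid cells mature. MLL fusion proteins keep the posterior part of the cluster and *Meis1* active, and HOXA9 and MEIS1, with PBX3 as a partner that helps both bind DNA, maintain the self-renewal of the leukemic cells. *Mecom*, which encodes EVI1, is a stem cell gene that is active in a portion of MLL-rearranged leukemias.

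The promoters of the members are shown because the treatment acts on HIF, a factor that binds a short DNA core, so that a reader can see where those letters lie near the start of these genes. RefSeq (GRCm38.p6) gave 10 promoter windows for 8 of the 9 members, each with 250 bases before and 50 bases after a RefSeq start site, and *Pbx3* had no entry. The 3 members with the highest CPM and the window with the most matches are printed from 5′ to 3′ on the gene's strand, and capitals mark the hypoxia response core, written ACGTG or GCGTG and searched on both strands. The *Hoxa9* window is chr6:52227321-52227620, the *Hoxa7* window chr6:52218524-52218823, the *Meis1* window chr11:19018920-19019219 and the downstream *Hoxa10* window chr6:52234890-52235189, all on the minus strand.
Hoxa9: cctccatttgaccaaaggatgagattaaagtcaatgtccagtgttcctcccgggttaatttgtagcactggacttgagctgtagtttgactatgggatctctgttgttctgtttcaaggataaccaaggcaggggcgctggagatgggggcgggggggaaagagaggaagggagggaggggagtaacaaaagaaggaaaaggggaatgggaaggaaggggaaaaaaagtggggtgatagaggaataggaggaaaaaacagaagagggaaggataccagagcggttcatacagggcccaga
Hoxa7: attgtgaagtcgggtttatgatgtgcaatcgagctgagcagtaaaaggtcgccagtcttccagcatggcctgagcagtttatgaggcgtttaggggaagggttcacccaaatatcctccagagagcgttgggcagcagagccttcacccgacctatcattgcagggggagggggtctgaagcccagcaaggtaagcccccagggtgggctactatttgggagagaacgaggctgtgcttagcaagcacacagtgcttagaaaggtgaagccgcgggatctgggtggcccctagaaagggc
Meis1: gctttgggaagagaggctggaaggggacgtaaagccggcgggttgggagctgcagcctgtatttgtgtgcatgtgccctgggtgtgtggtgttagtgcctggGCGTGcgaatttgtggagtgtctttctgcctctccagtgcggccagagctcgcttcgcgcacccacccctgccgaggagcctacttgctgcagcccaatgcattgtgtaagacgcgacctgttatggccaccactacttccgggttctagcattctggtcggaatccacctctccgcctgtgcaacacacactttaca
Hoxa10: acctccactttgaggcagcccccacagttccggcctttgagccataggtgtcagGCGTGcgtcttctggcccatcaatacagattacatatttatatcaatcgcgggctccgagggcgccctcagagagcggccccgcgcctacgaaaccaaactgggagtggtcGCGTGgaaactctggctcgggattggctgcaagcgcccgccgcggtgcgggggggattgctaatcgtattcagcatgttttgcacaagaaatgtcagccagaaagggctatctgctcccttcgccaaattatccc

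The hypoxia core was found in 4 of the 10 member windows, those of *Hoxa3*, *Hoxa5* and *Meis1* with 1 match each and the downstream window of *Hoxa10* with 2, and in 43.8% of all 32851 promoter windows of the same length. The *Hoxa7* and *Hoxa9* windows did not hold these letters. The MEIS core TGACAG was present in 2 of the 10 windows, one each of *Hoxa3* and *Mecom*, against 19.2% of all windows. The PBX-HOX sequence TGATTNAT (3.22% of all windows) and the E-box CACGTG (7.15%), which contains ACGTG, were in none of the 10. These are matches of letters in short windows and not binding sites. The *Hoxa7* and *Hoxa9* windows lie inside the spans that GENCODE M21 gives these genes, chr6:52214491-52221854 and chr6:52223100-52231089, which extend further upstream.

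To place the members by abundance, levels were compared between genes only as CPM per kilobase of exon, using exon bases not shared with another gene on the same strand. *Hoxa9* had 45.5 ± 5.34 CPM per kilobase in the DMSO samples (mean ± SD, n = 4) and *Hoxa7* 44.5 ± 3.77. *Hoxa9* was above *Hoxa7* in 6 of 8 samples and in 2 of 4 DMSO samples, and the DMSO ranges of this pair overlapped. *Hoxa10*, at 15.3 ± 6.52, lay below *Hoxa7* in 8 of 8 samples with no overlap. *Hoxa5* was at 15.2 ± 4.30 CPM per kilobase, and its order with *Hoxa10* was split, 4 samples each way. *Meis1* followed at 10.9 ± 0.994 CPM per kilobase, below *Hoxa5* in 8 of 8 samples although their ranges over the DMSO samples overlapped. The lower members were *Hoxa6* at 10.2 ± 2.73, *Mecom* at 6.64 ± 2.003, *Hoxa3* at 2.67 ± 0.424 and *Pbx3* at 2.15 ± 1.21 CPM per kilobase. The order of *Hoxa6* and *Meis1* was not settled, with *Hoxa6* above *Meis1* in DMSO replicates 1 and 2 and below it in DMSO replicates 3 and 4. *Mecom* and *Hoxa3* did not overlap, and *Hoxa6* was above *Mecom* in 7 of 8 samples.

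The *Hoxa* genes carried nearly all of the homeobox cluster signal in these cells. Summed CPM over the 11 *Hoxa* genes was 94.2% to 97.6% of the sum over all 4 HOX clusters in the 8 samples. Shares of this sum count reads without regard to gene length, so genes with more exon bases weigh more and the shares do not rank the genes. Per kilobase, *Hoxa9* and *Hoxa7* were at 45.5 and 44.5 CPM in the DMSO samples. By reads, *Hoxa9* alone was 45.9% to 52.6% of the *Hoxa* sum in DMSO samples and 44.5% to 54.3% in IOX5 samples. The share of *Hoxa7* was 22.6% to 28.4% and 19.5% to 26.9%, and that of *Hoxa10* 7.15% to 11.8% and 6.89% to 13.1%, so the shares of the groups overlapped for each of these genes. *Hoxa2* and *Hoxa4*, on the anterior side, were under 2 CPM per kilobase in every sample, and *Hoxa13*, the last gene on the posterior side, had 3 reads over all 8 samples.

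**Figure D1:**
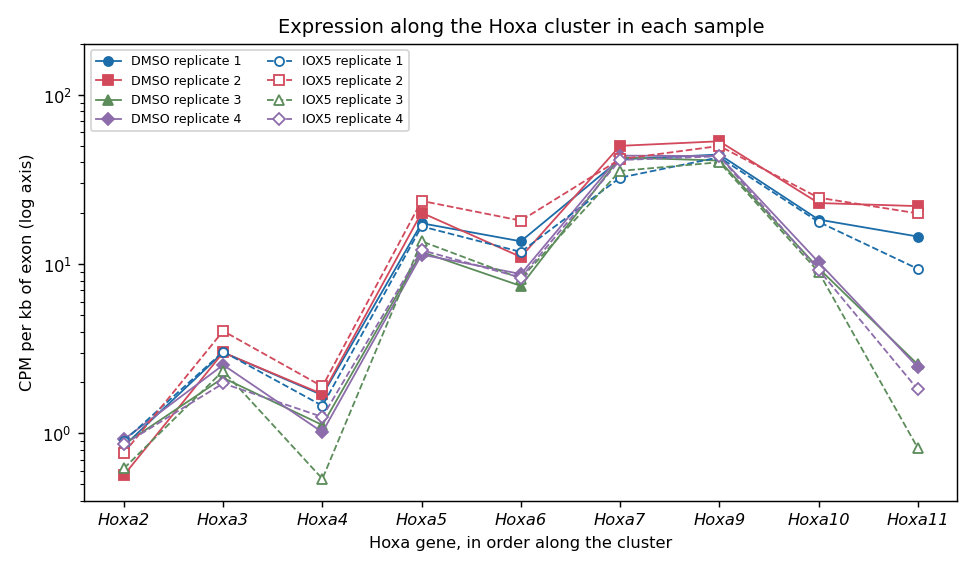
Level of 9 Hoxa genes (CPM per kilobase of exon, log axis) in the order of the cluster, with one line per sample, filled symbols and solid lines for DMSO and open symbols and dashed lines for IOX5. Hoxa7 and Hoxa9 form the peak in all 8 samples, and Hoxa11 spreads most, from 0.820 to 22.04 CPM per kilobase.

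To ask whether PHD inhibition altered the program, the groups were compared with the quasi-likelihood test of edgeR over all 12405 genes. None of the 9 members was called (Benjamini-Hochberg adjusted p under 0.05, the threshold for calling a gene), and *Hoxa7* was the one member with an unadjusted p under 0.05. Over all genes, 2.02% were called, 96 higher (0.774%) and 155 lower (1.25%), so that no call among 9 genes is near this background. DESeq2 and limma's voom also called 0 of the 9. In no member were the 4 IOX5 samples all above or all below the 4 DMSO samples, which was the case for 14.3% of all genes tested (5.98% above and 8.3% below). Samples that share a number deviated together from their group means, and the comparison was therefore fitted again with a block for the number. In that fit 3 of the 9 members were called, *Mecom* higher and *Hoxa7* and *Pbx3* lower, against 20.7% of all genes (11.2% higher and 9.43% lower). *Hoxa7*, *Hoxa9* and *Pbx3* were lower under IOX5 in 4 of 4 numbers, which held for 19.8% of all genes, and no member was higher in 4 of 4, which held for 21.3%.

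**Figure D2:**
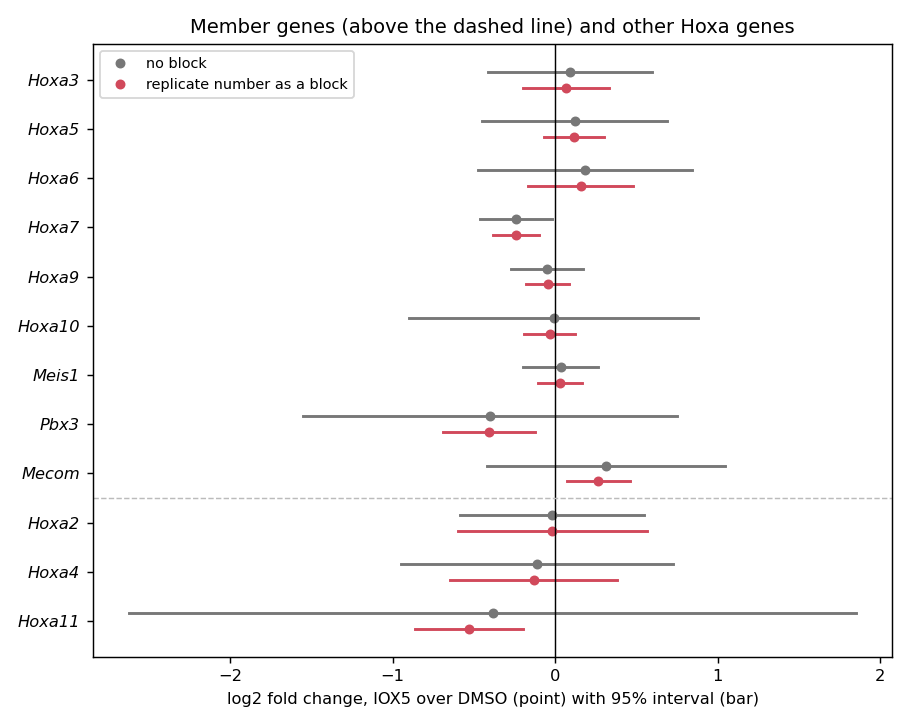
Log2 fold change of IOX5 over DMSO (points) with its 95% interval (bars) for the 9 members and, under the dashed line, 3 other Hoxa genes, without a block (gray) and with a block for the replicate number (red). Every gray interval but that of Hoxa7 spans 0, and the red intervals of Hoxa7, Pbx3, Mecom and Hoxa11 do not reach 0.

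*Hoxa9* (ENSMUSG00000038227) encodes the homeodomain factor on which the program is centered. It was at 244, 293, 225 and 239 CPM in DMSO replicates 1 to 4 and at 235, 274, 219.9 and 239 CPM in IOX5 replicates 1 to 4. Replicate 2 was the highest in both groups, and the ranges of the groups overlapped. The fold of IOX5 over DMSO was 0.967 with a 95% interval of 0.830 to 1.13 (edgeR, log2 −0.05, SE 0.098, adjusted p = 0.822). With the block the interval was 0.885 to 1.06.

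*Meis1* (ENSMUSG00000020160; chr11:18879817-19018985) encodes the cofactor that drives transformation together with HOXA9. Its level was 117.6, 103, 96.4 and 99.1 CPM in the DMSO samples and 127, 101, 99.2 and 98.5 CPM in the IOX5 samples. Replicate 1 was the highest in both groups and the other 6 samples lay within 96.4 to 103 CPM. The fold was 1.02 with a 95% interval of 0.873 to 1.20 (edgeR, log2 0.03, SE 0.10, adjusted p = 0.885), and with the block the interval was 0.931 to 1.12. Of its annotated exon bases, 1029 are shared with *Gm37818* on the same strand, where reads could not be given to one gene.

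*Hoxa7* (ENSMUSG00000038236), a neighbor of *Hoxa9* that MLL fusions also keep active, had the lowest p-value of the members. It was at 119.6, 144, 123 and 126 CPM in DMSO replicates 1 to 4 and at 93.3, 120.1, 102 and 119 CPM in IOX5 replicates 1 to 4. Each IOX5 sample was below the DMSO sample of its number, by 0.36, 0.26, 0.26 and 0.086 on the log2 scale. The groups overlapped by one sample, since IOX5 replicate 2 lay just above DMSO replicate 1. The fold was 0.848 (95% interval 0.727 to 0.989; edgeR log2 −0.24, SE 0.098, unadjusted p = 0.0379, adjusted p = 0.218), and an exact two-sided permutation test of log2 CPM gave p = 0.0571, where 0.0286 is the smallest value possible. With the replicate block *Hoxa7* was called lower (log2 −0.24, SE 0.066, edgeR adjusted p = 0.0205). That call was lost when number 1 or number 3 was left out (edgeR adjusted p = 0.113 and 0.116) and was kept without number 2 or 4 (0.0245 and 0.0119). The antisense transcript *Hoxaas3* overlaps 586 of its exon bases on the opposite strand and was at 1.33 to 2.80 CPM.

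*Hoxa10* (ENSMUSG00000000938), the gene next to *Hoxa9* on the posterior side, differed more between replicate numbers than between the groups. It was at 60.0, 75.1, 31.0 and 33.6 CPM under DMSO and at 58.1, 80.8, 29.5 and 30.4 CPM under IOX5. In both groups replicates 1 and 2 were far above replicates 3 and 4, and within a number the groups differed little. The log2 fold change was −0.01 without the block (SE 0.39, edgeR adjusted p = 0.994) and −0.03 with it (95% interval −0.19 to 0.12, edgeR adjusted p = 0.782). Its sign without the block turned with the scaling of the libraries.

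*Hoxa5* (ENSMUSG00000038253), a homeodomain factor of the middle of the cluster, was at 32.8, 37.8, 22.2 and 21.4 CPM under DMSO and at 31.4, 44.4, 25.6 and 22.7 CPM under IOX5. The 2 higher samples in each group were again replicates 1 and 2. Its log2 fold change was 0.12 (SE 0.25, edgeR adjusted p = 0.8286, and 0.348 with the block).

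*Hoxa3* (ENSMUSG00000079560), an anterior member, was at 16.7, 16.6, 11.8 and 14.1 CPM under DMSO and at 16.8, 22.3, 13.0 and 10.9 CPM under IOX5, with a log2 fold change of 0.09 (edgeR adjusted p = 0.861). *Hoxa6* (ENSMUSG00000043219), the shortest member and the one after *Hoxa5*, was at 11.9, 9.64, 6.50 and 7.64 CPM under DMSO and at 10.3, 15.8, 7.19 and 7.28 CPM under IOX5, with a log2 fold change of 0.18 (edgeR adjusted p = 0.770). In both genes IOX5 replicate 2 was the highest of all 8 samples, and neither passed the test with the block (edgeR adjusted p = 0.729 and 0.486). *Hoxa3* shares 482 exon bases with *Gm28308* on the same strand. Without IOX5 replicate 2 the log2 fold changes were −0.12 for *Hoxa3*, −0.11 for *Hoxa6* and −0.10 for *Hoxa5*.

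**Figure D3:**
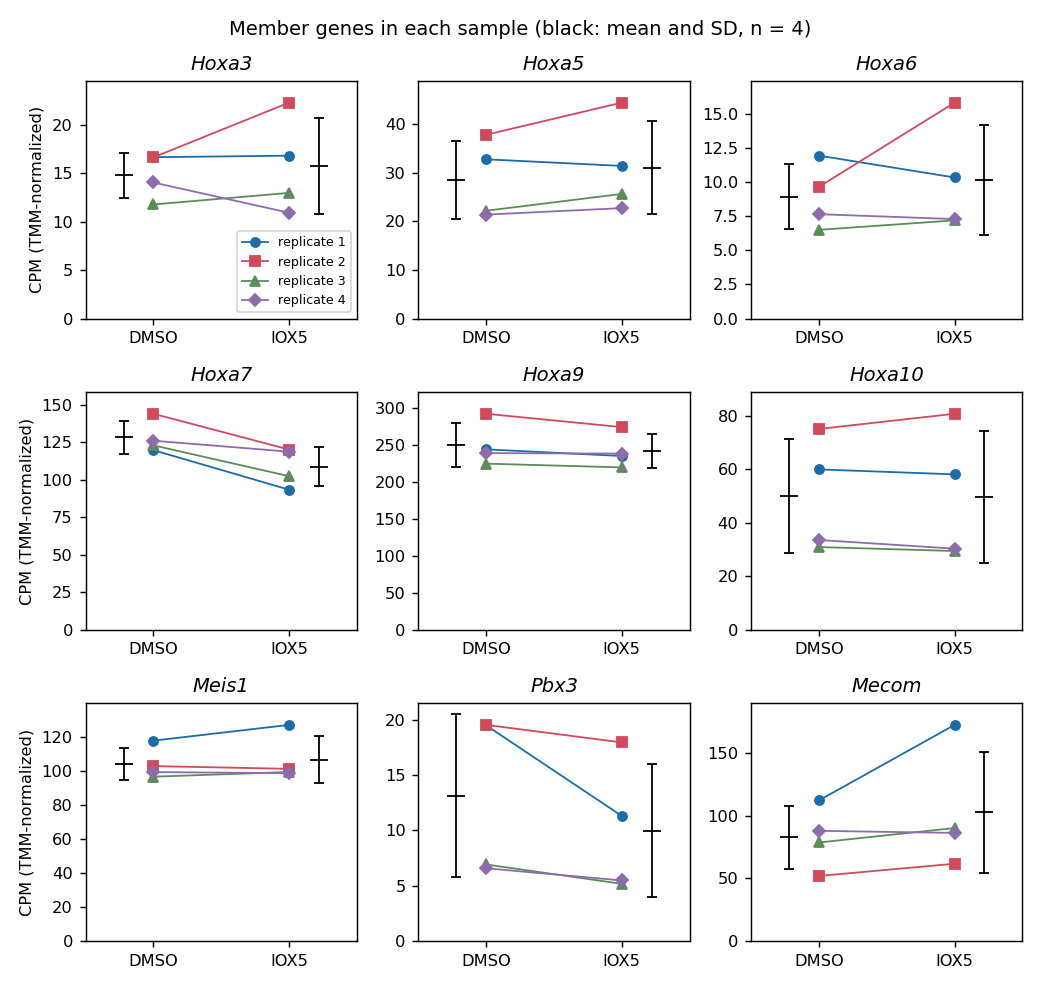
CPM of the 9 members in each sample, with one panel per gene, a line joining the DMSO and IOX5 sample of each replicate number, and the mean and SD of each group in black (n = 4). Hoxa7, Hoxa9 and Pbx3 slope down in all 4 lines, while for Hoxa10 and Pbx3 the distance between replicates 1 and 2 and replicates 3 and 4 exceeds the distance between the groups.

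*Pbx3* (ENSMUSG00000038718; chr2:34171457-34373142) encodes the partner of HOXA9 and MEIS1 on DNA. It was at 19.5, 19.5, 6.91 and 6.56 CPM under DMSO and at 11.3, 17.9, 5.16 and 5.46 CPM under IOX5. Replicates 1 and 2 were above replicates 3 and 4 in both groups, and each IOX5 sample was below the DMSO sample of its number, most in number 1 (log2 −0.78) and least in number 2 (log2 −0.12). Without a block the fold was 0.758 with a wide 95% interval of 0.341 to 1.68 (edgeR log2 −0.40, SE 0.51, adjusted p = 0.707). With the replicate block it was called lower, at 0.755-fold with an interval of 0.621 to 0.918 (edgeR adjusted p = 0.0428). This call rested on numbers 1, 3 and 4, since leaving out any of them gave an edgeR adjusted p of 0.254, 0.126 or 0.0606, and leaving out number 2 gave 0.00895.

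*Mecom* (ENSMUSG00000027684; chr3:29951296-30548008) was at 112, 51.8, 78.5 and 87.8 CPM in the DMSO samples and at 172, 61.5, 90.0 and 86.1 CPM in the IOX5 samples. Replicate 1 was the highest and replicate 2 the lowest in both groups, and IOX5 was higher in 3 of 4 numbers, by 0.62 on the log2 scale in number 1. The fold was 1.24 with a 95% interval of 0.746 to 2.07 (edgeR log2 0.31, SE 0.32, adjusted p = 0.635). With the replicate block *Mecom* was called higher at the edge of the threshold (log2 0.27, SE 0.089, edgeR adjusted p = 0.0490). The call was lost without number 1 or number 3 (edgeR adjusted p = 0.336 and 0.125), and without IOX5 replicate 1 the unblocked log2 fold change was −0.059. Of 6 tested markers of megakaryocytes, a lineage in which *Mecom* is also active, 4 were called higher with the block and 1 without it, with a summed level of the list of 41.3 to 108 CPM in DMSO and 102 to 197 CPM in IOX5 samples, and their part in the *Mecom* result was not tested.

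The members differed in how evenly they were expressed among untreated samples. On the log2 CPM scale the highest DMSO sample was 2.93-fold above the lowest for *Pbx3*, 2.42-fold for *Hoxa10* and 2.16-fold for *Mecom*, ranges larger than those of 93.5%, 90.6% and 88.3% of the genes tested. *Hoxa7*, *Meis1* and *Hoxa9* were the evenest, at 1.20-fold, 1.22-fold and 1.30-fold, near the median of 1.24-fold over all genes. In all, 7 of 9 members had a larger range than that median. The split between replicates 1 and 2 and replicates 3 and 4 that *Hoxa5*, *Hoxa10* and *Pbx3* showed was also present in *Cd34*, a stem and progenitor marker, in the opposite direction, with 26.0, 23.2, 133 and 153 CPM in DMSO replicates 1 to 4 and 40.4, 35.4, 225 and 231 CPM in IOX5 replicates 1 to 4. Of the other tested genes of that list, *Kit*, *Flt3* and *Cd48* split as *Cd34* did in the DMSO samples. *Cd93*, *Ly6a* and *Procr* did not, with *Cd93* at 365, 271, 268 and 302 CPM in DMSO replicates 1 to 4. Mast cell and basophil genes also split as *Cd34* did, among them *Cpa3* at 21.2, 18.0, 95.1 and 75.0 CPM and *Mcpt8* at 46.0, 47.5, 188 and 156 CPM. *Mpo*, a gene of granulocyte precursors, followed *Cd34* with 1339, 984, 3380 and 3077 CPM in the DMSO samples. Other genes of the same marker list were not uniform in the DMSO samples. *S100a8*, *S100a9*, *Ngp*, *Camp*, *Mmp9* and *Cebpe* split as *Hoxa10* did. *S100a8* was at 329.8, 497, 182 and 136 CPM and *Ngp* at 92.4, 144, 46.5 and 35.1 CPM in DMSO replicates 1 to 4. *Mmp8* and *Ltf* did not split this way. *Mmp8* was at 89.7, 250, 208 and 259 CPM in DMSO replicates 1 to 4, and *Ltf* was lower in DMSO replicate 1 than in DMSO replicate 3. The part of cell composition in the spread of the members was not tested.

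Ratios within a library do not depend on its scaling and were used to ask whether the balance of the partners moved. The ratio of *Meis1* to *Hoxa9* CPM was 0.482, 0.351, 0.429 and 0.415 in the DMSO samples and 0.539, 0.369, 0.452 and 0.413 in the IOX5 samples. It was higher under IOX5 in 3 of 4 numbers, with a mean log2 difference of 0.075 (exact two-sided permutation p = 0.686). The ratio of *Pbx3* to *Hoxa9* was lower in 4 of 4 numbers, with a log2 difference of −0.35 (exact permutation p = 0.514), and that of *Hoxa10* to *Hoxa9* was higher in 2 of 4 with a log2 difference of 0.0067 (exact permutation p = 0.971). After adjustment over the 3 ratios each exact permutation p was 0.971. Within replicate numbers, where 0.125 is the smallest p possible, an exact sign-flip test gave p = 0.125 for *Pbx3* to *Hoxa9*.

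Among the other 5 *Hoxa* genes, 4 could be tested and none was called without the block. *Hoxa11*, the posterior neighbor of *Hoxa10*, was at 33.3, 50.4, 5.85 and 5.64 CPM under DMSO and at 21.5, 45.6, 1.88 and 4.16 CPM under IOX5. It repeated the split of *Hoxa10* by number in a stronger form, with an 8.72-fold range among the DMSO samples that exceeded that of 99.2% of genes, and it was lower under IOX5 in 4 of 4 numbers. Its log2 fold change was −0.39 without the block (SE 0.99, edgeR adjusted p = 0.866), and with the block it was called lower (log2 −0.53, SE 0.16, edgeR adjusted p = 0.0286). That call was lost when number 1, 3 or 4 was left out and kept without number 2. The antisense *Hoxa11os* covers 800 of its exon bases and was at 0.31 to 3.91 CPM. *Hoxa2* and *Hoxa4* had log2 fold changes of −0.020 and −0.11 (edgeR adjusted p = 0.976 and 0.896). Of 12 other transcripts listed for the *Hoxa* locus and its flanks, 6 were tested. Without the block edgeR called none and DESeq2 called 1 higher. With it edgeR called *Snx10*, a sorting nexin gene on the flank, higher (35.2, 33.4, 41.0 and 37.2 CPM under DMSO against 43.3, 54.4, 47.0 and 46.0 CPM under IOX5, edgeR adjusted p = 0.0098, and 0.0734 without the block). *Hibadh*, a mitochondrial dehydrogenase gene on the other flank, had a log2 fold change of 0.14 and was not called.

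The other HOX clusters contributed little. The *Hoxb* sum was 12.2 to 35.9 CPM per sample, or 2.41% to 5.83% of the HOX signal, while the *Hoxc* and *Hoxd* sums did not exceed 0.178 CPM. Of the 28 genes of these clusters 5 were tested, none was called with or without the block, and their median log2 fold change was 0.071. *Hoxb4*, a gene linked to stem cell expansion, was at 8.82, 14.8, 14.9 and 12.8 CPM under DMSO and at 8.49, 16.3, 15.2 and 13.96 CPM under IOX5 (edgeR adjusted p = 0.894). *Hoxb2* was lower under IOX5 in 4 of 4 numbers without being called (log2 −0.44, edgeR adjusted p = 0.791, and 0.150 with the block).

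The TALE family, the homeodomain class to which MEIS1 and PBX3 belong, was examined for other members. Of 8 tested TALE genes none was called without the block by edgeR, DESeq2 or voom, and edgeR called 3 higher and 0 lower with it (11.2% and 9.43% of all genes). Their median log2 fold change was 0.32 without the block and 0.30 with it, against 0.017 and 0.014 over all genes. Without number 1, 2, 3 or 4 the block called 2, 1, 0 and 3 of them higher. *Meis3*, a paralog of *Meis1*, was at 0.99, 1.40, 0.81 and 0.62 CPM under DMSO and at 1.52, 4.62, 1.25 and 0.95 CPM under IOX5 (edgeR with the block, log2 1.04, SE 0.28, adjusted p = 0.0200). *Tgif1*, a repressor of this class, was at 18.4, 14.5, 23.8 and 24.0 CPM under DMSO and at 25.1, 15.9, 34.8 and 32.9 CPM under IOX5 (edgeR with the block, log2 0.41, SE 0.094, adjusted p = 0.0088). *Pbx2*, at 36.3 to 46.9 CPM over all samples, was not called in either fit.

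**Figure D4:**
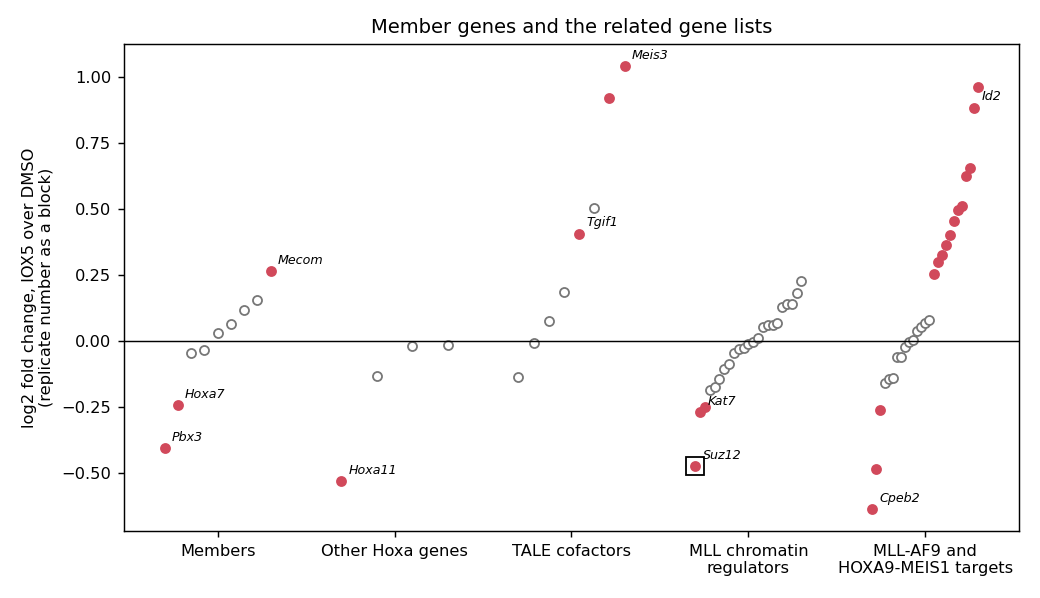
Log2 fold change of IOX5 over DMSO, fitted with a block for the replicate number, for each tested gene of the members and of 4 related lists; red points were called with the block (adjusted p under 0.05), open points were not, and the black square marks the one gene also called without the block. Suz12 is the squared gene at −0.47, and the target genes run from −0.64 for Cpeb2 to 0.96.

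Of 23 chromatin regulators that act on *Hoxa* genes, among them the MLL complex, the DOT1L and elongation complexes and Polycomb, edgeR called 1 lower and 0 higher without the block (DESeq2 called 2 lower), and 3 lower and 0 higher with it, where 9.43% of all genes were called lower. The list's median log2 fold change was −0.0060. *Suz12*, a core subunit of the repressive Polycomb complex PRC2, was at 370.4, 409.6, 359 and 363 CPM in DMSO replicates 1 to 4 and at 292, 273, 269 and 249 CPM in IOX5 replicates 1 to 4. The groups did not overlap, and it was called lower in both fits (log2 −0.47, SE 0.068, edgeR adjusted p = 0.0230, and 0.000487 with the block). The call without the block was lost when any one DMSO sample or IOX5 replicate 3 was left out. *Kat7*, a histone acetyltransferase that MLL leukemias depend on, was at 151 to 155 CPM under DMSO and 115 to 141 CPM under IOX5 and was called lower by edgeR with the block and not without it (log2 −0.27, edgeR adjusted p = 0.0805 without it and 0.0139 with it). The third was *Psip1*, which tethers MLL to chromatin, at 85.2 to 110.03 CPM under DMSO and 61.4 to 98.1 CPM under IOX5. *Kmt2a*, the gene of MLL itself, *Men1*, the gene of its partner, and *Dot1l* were not called in either fit. For *Dot1l* the IOX5 samples, at 101 to 115.99 CPM, all lay below the DMSO samples, at 116.4 to 126 CPM. Its edgeR adjusted p was 0.147 without the block and 0.0628 with it, and 8.3% of all genes had all IOX5 samples below.

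Genes listed by hand as targets of MLL-AF9 or of HOXA9 with MEIS1 were called in both directions. The list is not limited to genes that these factors activate, and *Gfi1* and *Cebpa* are among those in it. Without the block edgeR called 0 of the 27 tested target genes, while DESeq2 called 1 higher and 1 lower and voom 1 lower. With the block edgeR called 12 higher and 3 lower (11.2% and 9.43% of all genes), and 10 were higher and 5 lower in 4 of 4 numbers. Their median log2 fold change was 0.071 without the block and 0.070 with it. *Id2*, an inhibitor of helix-loop-helix factors, was at 14.3, 13.7, 22.3 and 27.2 CPM under DMSO and at 23.2, 32.3, 45.6 and 41.0 CPM under IOX5 (edgeR with the block, log2 0.88, SE 0.11, adjusted p = 0.000224). *Cpeb2*, an RNA-binding regulator of translation, was at 29.3, 42.2, 30.7 and 35.3 CPM under DMSO and at 19.4, 30.1, 20.2 and 19.3 CPM under IOX5 (edgeR with the block, log2 −0.64, SE 0.089, adjusted p = 0.000485). The other 2 called lower with the block were *Mef2c*, a transcription factor of lymphoid and myeloid progenitors, at 221, 348, 225 and 245 CPM against 127, 278, 165 and 191 CPM, and *Hmgb3*. Genes called higher with the block included *Kit*, *Cd34*, *Myb*, *Erg*, *Cebpa* and *Bcl2*, of which *Cd34* had the log2 fold change 0.65 and *Myb*, a transcription factor that the fusion needs, 0.36.

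Markers of blood lineages that these cells could include or give rise to are given here because several of them moved beside the members. With the block, in which 11.2% of all genes were called higher, 5 of 7 tested stem and progenitor markers were called higher (sum 391 to 626 CPM under DMSO, 645 to 835 CPM under IOX5), as were 6 of 11 macrophage and monocyte markers (1268 to 1730 and 1810 to 3677 CPM), 8 of 12 neutrophil markers (4887 to 7758 and 5556 to 8741 CPM), 7 of 7 mast cell and basophil markers (149 to 571 and 182 to 959 CPM) and 4 of 6 megakaryocyte markers. No marker of these lists was called lower in either fit, and the one called without the block was *Vwf*. *Cd34*, *Kit* and *Flt3* stood in the stem and progenitor list and also in the list of target genes, so their calls were counted in each. *Lyz2*, lysozyme of mature myeloid cells, was at 500.5 to 754 CPM under DMSO and 869 to 1927 CPM under IOX5, with no overlap (edgeR adjusted p = 0.108 without the block). Fewer markers of other cells could be tested. With the block 1 of 4 erythroid markers (sum 3.89 to 17.2 CPM under DMSO and 7.37 to 28.2 CPM under IOX5), 0 of 2 B cell markers (41.2 to 68.1 and 48.5 to 83.4 CPM), 1 of 1 T and NK cell marker, *Nkg7* (list sum 4.94 to 18.2 and 7.05 to 26.8 CPM), and 1 of 2 stromal and endothelial markers, *Pecam1* (84.5 to 164 and 132 to 219 CPM), were called higher. The part of these markers in the results for the members was not tested.

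To describe which genes had the nearest values over the 8 samples, log2 CPM profiles centered on their own means were compared across 12037 genes with at least 1 CPM. The measure counts the size of the differences between samples as well as their direction, so genes that vary little lie close together. The profiles closest to *Hoxa9* were those of *Baz1a*, *Taf10*, *Rpe*, *Tmem14c* and *Rap1gds1*, with root mean square differences of 0.031 to 0.046 on the log2 scale, against a median of 0.23 over all genes. The closest to *Meis1* were *Rnf170*, *Nt5dc2*, *Ctr9*, *Nsf* and *Rfk*, at 0.040 to 0.058. No member was among them. *Hoxa7* was at 0.14 from *Hoxa9*, *Meis1* at 0.19 and *Hoxa10* at 0.48. Whether these members differed in direction or only in the size of their differences was not tested.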

How the data were processed

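RNA was poly(A)-selected and made into directional libraries, and the authors trimmed the reads with cutadapt 1.18, mapped them to GRCm38 with HISAT2 2.2.1 and obtained the deposited counts, raw and per Ensembl gene, with HTSeq 2.0.1 (tools as listed in the submitters' processing notes). The annotation release and the strand setting given to HTSeq are not given in the sources used here. *Xist* (105071 reads) and *Tsix* (21 reads) were told apart by strand. Of 54838 genes, 54809 were matched to GENCODE M21 for names and positions. The 5 summary lines per file, 20.6% to 22.6% of reads, were left out.

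Counts were analyzed in R 4.3.3 with edgeR 4.0.16 (filterByExpr, TMM, quasi-likelihood test, no covariate), and a gene was called where its p, adjusted after Benjamini and Hochberg over all 12405 genes tested, was under 0.05. The common biological coefficient of variation was 0.202. The exact two-sided permutation test of a single value used all 70 assignments of the samples. Log2 CPM was computed with a prior count of 2.

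The labels do not state that the replicate numbers pair the samples, and the block was used because of the correlations in the data. Deviations from the group means correlated at 0.758, 0.744, 0.732 and 0.636 between DMSO and IOX5 samples of numbers 1 to 4. DMSO replicate 4 correlated more with IOX5 replicate 3 (0.685) than with IOX5 replicate 4. The data therefore did not settle the pairing within numbers 3 and 4. Chi-square per gene between DMSO replicates 3 and 4 was 2.30, above sampling noise, so they were kept as separate samples. It was 15.7 to 25.1 for the other DMSO pairs and 10.2 to 45.6 for the IOX5 pairs. DMSO replicates 3 and 4 were therefore the most alike, and whether they are independent samples is not known.

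Alternatives were the replicate block, DESeq2 1.42.0, voom of limma 3.58.1 with sample weights, other scaling factors and filters, thinned counts, each sample or number left out, a threshold of 0.1 and other prior counts, and all exon bases as gene length (added after seeing the data). The fits were tested on simulated data. The members and gene lists, written by hand, were chosen with earlier results of these data known. Named were all members and *Hoxa* genes, in each program list the 2 genes with the smallest adjusted p, in marker lists the 2 with the highest CPM (not all are printed), and the 5 nearest profiles. Other genes were named after their values were seen. The listed transcript *Gm28309* lies at the *Hoxd* cluster and had no reads. Values of some genes in the lists are not reported here.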

Additional observations from a re-analysis of the deposited data

Results flagged for a closer look

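In 26 sets of 4 samples (13 *Hoxa* and other program genes in each group), the highest and lowest sample were compared with the rest of their group by Dixon's ratio. *Meis1* under IOX5 was the one set in which a sample stood apart, with replicate 1 at 126.9 CPM and the other 3 IOX5 samples between 98.5 and 101 CPM. Replicate 1 was also the highest *Meis1* sample under DMSO, at 117.6 CPM. Chance alone marks about 1 in 20 such sets.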

How the results depend on the processing

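Without the block, none of the 9 members was called under DESeq2, voom, other scaling factors, other filters, thinned counts, a threshold of 0.1 or with any one sample left out, and the adjusted p of *Hoxa7* ran from 0.0661 to 0.380 over the 7 settings that kept all samples. The replicate block, which gave 1 member higher and 2 lower, changed no other member's call. Leaving out one number from the block gave 0 to 1 members higher and 0 to 2 lower. The block is a model of 4 numbers whose meaning is unknown, and the cause of these changes was not tested.

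Over all genes, 96 were called higher and 155 lower. The counts were 1394 and 1170 with the replicate block (994 and 650, 1119 and 1016, 642 and 403, and 1355 and 1058 without number 1, 2, 3 and 4), 433 and 546 by DESeq2, 426 and 610 by voom, and 332 and 486 at a threshold of 0.1. With no filter on low counts 73 were called lower, where more genes entered the adjustment. Without one sample 0 to 130 were called higher and 0 to 333 lower. No gene was called when replicate 3 or 4 of DMSO or replicate 3 of IOX5 was left out, where 1969, 1846 and 2111 genes had an unadjusted edgeR p under 0.05, and 11 and 17 genes were called without DMSO replicate 1 or 2. In the 6 lists of related genes, 0 were called higher and 1 lower. This became 16 and 7 with the block (12 and 4, 11 and 5, 8 and 4, and 14 and 6 without number 1, 2, 3 and 4), 2 and 3 by DESeq2, 1 and 3 at a threshold of 0.1, and 2 lower by voom, and 0 higher and 0 to 2 lower without one sample.

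The sign of *Hoxa10* turned under voom (log2 0.046), RLE factors (0.0011), upper-quartile factors (0.0078) and a minimum of 10 counts in every sample (0.0052). Without one sample the log2 fold changes were −0.12 to 0.23 for *Hoxa3*, −0.10 to 0.28 for *Hoxa5*, −0.11 to 0.35 for *Hoxa6*, −0.11 to 0.035 for *Hoxa9*, −0.34 to 0.26 for *Hoxa10*, −0.062 to 0.098 for *Meis1* and −0.059 to 0.50 for *Mecom*. They were −0.29 to −0.17 for *Hoxa7* and −0.84 to −0.14 for *Pbx3*, which kept their sign. With the block and without one number they were −0.063 to 0.20 for *Hoxa3*, −0.061 to 0.29 for *Hoxa6*, −0.084 to 0.0051 for *Hoxa10* and −0.0030 to 0.048 for *Meis1*. The log2 ratio of *Meis1* to *Hoxa9* ran from −0.024 to 0.16 and that of *Hoxa10* to *Hoxa9* from −0.21 to 0.19 without one sample. With all exon bases as its length, *Meis1* was at 9.87 CPM per kilobase under DMSO. Depth limits *Pbx3*, with 63 to 276 reads per sample, and *Hoxa6*, with 80 to 178.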

Other observations

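A few homeobox genes outside the cluster's center separated the samples by number in both groups. *Hoxb2* was at 0.28 CPM in DMSO replicate 1 and 0.24 CPM in IOX5 replicate 1, and at 2.43 to 4.14 CPM in the other 6 samples. *Hoxb3* was at 1.13 and 1.52 CPM in replicate 1 and at 3.56 to 10.7 CPM elsewhere. *Hoxb13*, the most posterior gene of its cluster, ran the other way, with 1.92 to 3.37 CPM in replicates 1 and 2 and 0 to 0.35 CPM in replicates 3 and 4. These genes were picked after their values were seen, and the differences between numbers were not tested.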
